A study of Homo sapiens with 8 samples.

Results

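The genes SRGN, CHI3L2, CFD, TYROBP, PLEK and MPO are known mainly from granulocytes, macrophages and other cells that store or secrete proteins, and were followed here in HPB-ALL and CCRF-CEM, lines grown out of T cell leukaemias. They were taken as the probe sets whose gene symbol is one of the 6, out of 14884 named genes on the array. Each of the 6 had a single probe set, and all 6 passed the filter on dim genes that left 8930 genes for testing. The genes were chosen with their values by line and construct in view, above all those in HPB-ALL, so their values in every comparison that includes HPB-ALL arrays are given as a description, with no call or p-value. Beside them stands the share of all tested genes that were called. P-values of SRGN, CFD, CHI3L2 and TYROBP are given for the comparison inside CCRF-CEM, with the spread taken over both lines.

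The study transduced HPB-ALL and CCRF-CEM, both established lines of T cell acute lymphoblastic leukaemia, with a short hairpin RNA (shRNA) against TOX, a nuclear HMG-box protein needed for T cell development. Each line gave 4 arrays, 1 each of cells with the hairpin shTOX-2, cells with the hairpin shTOX-1, cells with a scramble shRNA and untransduced cells. The 3 transduced cultures of a line shared spinoculation, puromycin selection and a wait of at least 2 weeks, none of which the labels give for untransduced cells. With 1 array per construct and line, replicates exist only across hairpins and across kinds of control, nothing says that arrays came from separate cultures, and the number of arrays limits the precision.

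Serglycin, the product of SRGN, is the small proteoglycan core on which secretory granules of blood cells pack their proteases and other cargo. Myeloperoxidase (MPO) is the haem enzyme of neutrophil azurophil granules that makes hypochlorous acid, and factor D (CFD) is the serine protease that starts the alternative complement pathway by cutting factor B. CHI3L2 encodes a secreted chitinase-like protein without chitinase activity. TYROBP, also called DAP12, is a membrane adaptor with an activation motif that couples receptors of myeloid and natural killer (NK) cells to tyrosine kinases, and pleckstrin (PLEK) is a major protein kinase C substrate of platelets and leukocytes. SRGN and TYROBP are also used by cytotoxic lymphocytes, so they do not mark myeloid cells alone.

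TOX itself checked the labels. In HPB-ALL it stood at 28.0% of the scramble array with shTOX-2 and 74.2% with shTOX-1, and in CCRF-CEM at 44.6% with shTOX-2 and 77.0% with shTOX-1. The hairpin shTOX-2 thus left less TOX in both lines. Array medians lay between 4.62 and 4.71 on the log2 scale, and arrays correlated across tested genes at r = 0.949 to 0.985 within a line and 0.876 to 0.908 between lines. Of 10 T cell markers, 7 had a named probe set, and CD3D, CD3E and CD3G had none in the annotation used here. CD247, CD5, CD7, LCK and CD6 had means above the filter level of log2 5.18 in both lines, whereas the means of CD28 (4.72) and of CD2 lay below it in HPB-ALL.

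Promoter windows are shown for the 3 genes that were lower together with shTOX in HPB-ALL and have an entry in the table used, CHI3L2, CFD and TYROBP, and for PLEK, the gene that separated the lines most. Each runs from 250 bases before to 50 bases after the annotated start of the gene, 5′ to 3′ on the gene's strand, as given by RefSeq for GRCh38.p14. Capitals mark GAGGAA, the core that the myeloid factor PU.1 prefers, and TGTGGT, the core bound by RUNX factors, searched on both strands; no 2 matches overlapped. The windows are chr1:111227409-111227708 on the plus strand for CHI3L2 (the upstream of its 2 windows), chr19:859414-859713 on the plus strand for CFD, chr19:35908246-35908545 on the minus strand for TYROBP and chr2:68365032-68365331 on the plus strand for PLEK.
CHI3L2: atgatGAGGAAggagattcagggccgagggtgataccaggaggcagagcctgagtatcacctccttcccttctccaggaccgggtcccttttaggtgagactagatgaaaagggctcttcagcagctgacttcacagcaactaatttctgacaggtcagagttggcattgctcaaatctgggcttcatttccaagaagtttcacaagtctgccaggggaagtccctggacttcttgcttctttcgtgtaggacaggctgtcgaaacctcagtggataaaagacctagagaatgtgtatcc
CFD: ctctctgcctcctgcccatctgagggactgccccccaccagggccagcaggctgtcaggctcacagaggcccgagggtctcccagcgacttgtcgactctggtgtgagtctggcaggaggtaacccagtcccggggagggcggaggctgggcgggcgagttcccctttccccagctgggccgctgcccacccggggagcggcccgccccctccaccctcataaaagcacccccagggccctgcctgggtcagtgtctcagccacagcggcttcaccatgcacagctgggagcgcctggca
TYROBP: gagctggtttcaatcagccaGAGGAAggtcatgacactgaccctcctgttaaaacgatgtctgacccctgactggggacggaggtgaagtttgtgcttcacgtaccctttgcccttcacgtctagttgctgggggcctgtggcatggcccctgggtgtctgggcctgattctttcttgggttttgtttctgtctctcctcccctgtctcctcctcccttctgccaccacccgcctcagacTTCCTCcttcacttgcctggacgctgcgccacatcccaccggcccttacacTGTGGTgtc
PLEK: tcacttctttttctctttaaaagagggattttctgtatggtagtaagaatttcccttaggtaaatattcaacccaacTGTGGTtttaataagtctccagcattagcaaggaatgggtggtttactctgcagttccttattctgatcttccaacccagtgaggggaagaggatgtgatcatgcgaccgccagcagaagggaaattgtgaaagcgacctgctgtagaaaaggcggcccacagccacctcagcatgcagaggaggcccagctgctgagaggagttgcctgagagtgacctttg

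GAGGAA was found once in the CHI3L2 window shown, 245 bases before its start, and at 230 and 10 bases before the start of TYROBP, the second on the opposite strand. The other CHI3L2 window, which begins downstream, held none. GAGGAA is in 27.9% of 35116 promoter windows of this length. TGTGGT was found in the PLEK window, 173 bases before the start, and in the TYROBP window 42 bases into the transcript, and 13.1% of all windows hold it. The CFD window held neither, and TATAAA, the TATA box letters, was in none of these 4 windows and in 11.5% of all. CFD had the highest G and C content of the 4 windows, 69.7%, with 57.7% in TYROBP, 49.7% in CHI3L2 and 47.0% in PLEK. These matches describe letters only.

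SRGN, the granule proteoglycan, had log2 levels of 5.17 with shTOX-2 and 6.28 with shTOX-1 in HPB-ALL, against 7.76 with scramble and 7.99 untransduced. Both shTOX arrays lay below both controls, and the shTOX-2 array had reached the filter level, so background limits the size of that difference. In CCRF-CEM its levels were 8.04 with shTOX-2 and 8.19 with shTOX-1, against 8.65 with scramble and 8.43 untransduced. The shTOX arrays again lay below both controls, and the steps were smaller: relative to scramble, 16.6% of the signal was left with shTOX-2 in HPB-ALL, and 65.8% in CCRF-CEM. All 4 HPB-ALL arrays lay below all 4 CCRF-CEM arrays, with means of 6.80 ± 1.32 in HPB-ALL and 8.33 ± 0.27 in CCRF-CEM (SD, n = 4 each).

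CFD, the complement protease, was at 7.59 with shTOX-2 and 7.84 with shTOX-1 in HPB-ALL, against 9.19 with scramble and 8.89 untransduced. The hairpins gave nearly the same level although they left different amounts of TOX. In CCRF-CEM, CFD was at 6.64 with shTOX-2 and 6.47 with shTOX-1, against 6.31 with scramble and 6.39 untransduced. There the shTOX arrays lay above the controls, opposite to HPB-ALL, within a whole range of 0.33. CFD averaged 8.38 ± 0.78 in HPB-ALL and 6.45 ± 0.14 in CCRF-CEM (SD, n = 4 each), 3.79-fold higher in HPB-ALL, and the lines did not overlap.

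CHI3L2, the chitinase-like protein, was at 6.52 with shTOX-2 and 6.08 with shTOX-1 in HPB-ALL, against 8.46 with scramble and 7.83 untransduced. It was the only one of the 4 genes low in both HPB-ALL shTOX arrays for which shTOX-1, the hairpin that left more TOX, gave the lower level. In CCRF-CEM it was at 9.09 with both shTOX-2 and untransduced cells, 9.13 with scramble and 9.63 with shTOX-1. The other arrays were nearly level and the shTOX-1 array alone was higher. CHI3L2 averaged 7.22 ± 1.11 in HPB-ALL and 9.24 ± 0.26 in CCRF-CEM (SD, n = 4 each), 4.04-fold higher in CCRF-CEM.

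MPO, the azurophil granule enzyme, did not follow the hairpins in HPB-ALL. It was at 7.94 with shTOX-2 and 5.10 with shTOX-1, against 7.03 with scramble and 4.83 untransduced. A shTOX array and a control array were thus high, and the other shTOX array and the other control were below the filter level. In CCRF-CEM it was at 4.94 with shTOX-2 and 5.45 with shTOX-1, against 4.47 with scramble and 4.65 untransduced, with 3 of the 4 arrays below the filter level. MPO passed the filter on its mean through the 2 high HPB-ALL arrays, and its lines overlapped, with means of 6.22 ± 1.504 in HPB-ALL and 4.88 ± 0.43 in CCRF-CEM (SD, n = 4 each).

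TYROBP, the receptor adaptor, was at 5.60 with shTOX-2 and 5.90 with shTOX-1 in HPB-ALL, against 6.80 with scramble and 7.34 untransduced. In CCRF-CEM it was at 5.34 with shTOX-2 and 5.46 with shTOX-1, against 5.35 with scramble and 5.37 untransduced. These CCRF-CEM levels spanned only 0.11 and sat just above the filter level of 5.18, where a fall would be hard to see. With shTOX-2, HPB-ALL came close to that level. TYROBP averaged 6.41 ± 0.80 in HPB-ALL and 5.38 ± 0.05 in CCRF-CEM (SD, n = 4 each), and no arrays of the lines overlapped.

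PLEK, the protein kinase C substrate, differed between the lines far more than between constructs. In HPB-ALL it was at 8.86 with shTOX-2 and 9.40 with shTOX-1, against 8.96 with scramble and 9.80 untransduced. In CCRF-CEM it was at 4.16 with shTOX-2 and 4.02 with shTOX-1, against 4.19 with scramble and 4.45 untransduced, all 4 below the filter level. The difference of 5.05, 33.1-fold, is therefore limited by background on the CCRF-CEM side. Only 1 of the other tested genes had a larger positive difference between HPB-ALL and CCRF-CEM. PLEK was chosen with these values in view and passed the filter through HPB-ALL, so nothing is read from that rank. In both lines the untransduced array was the highest.

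**Figure D1:**
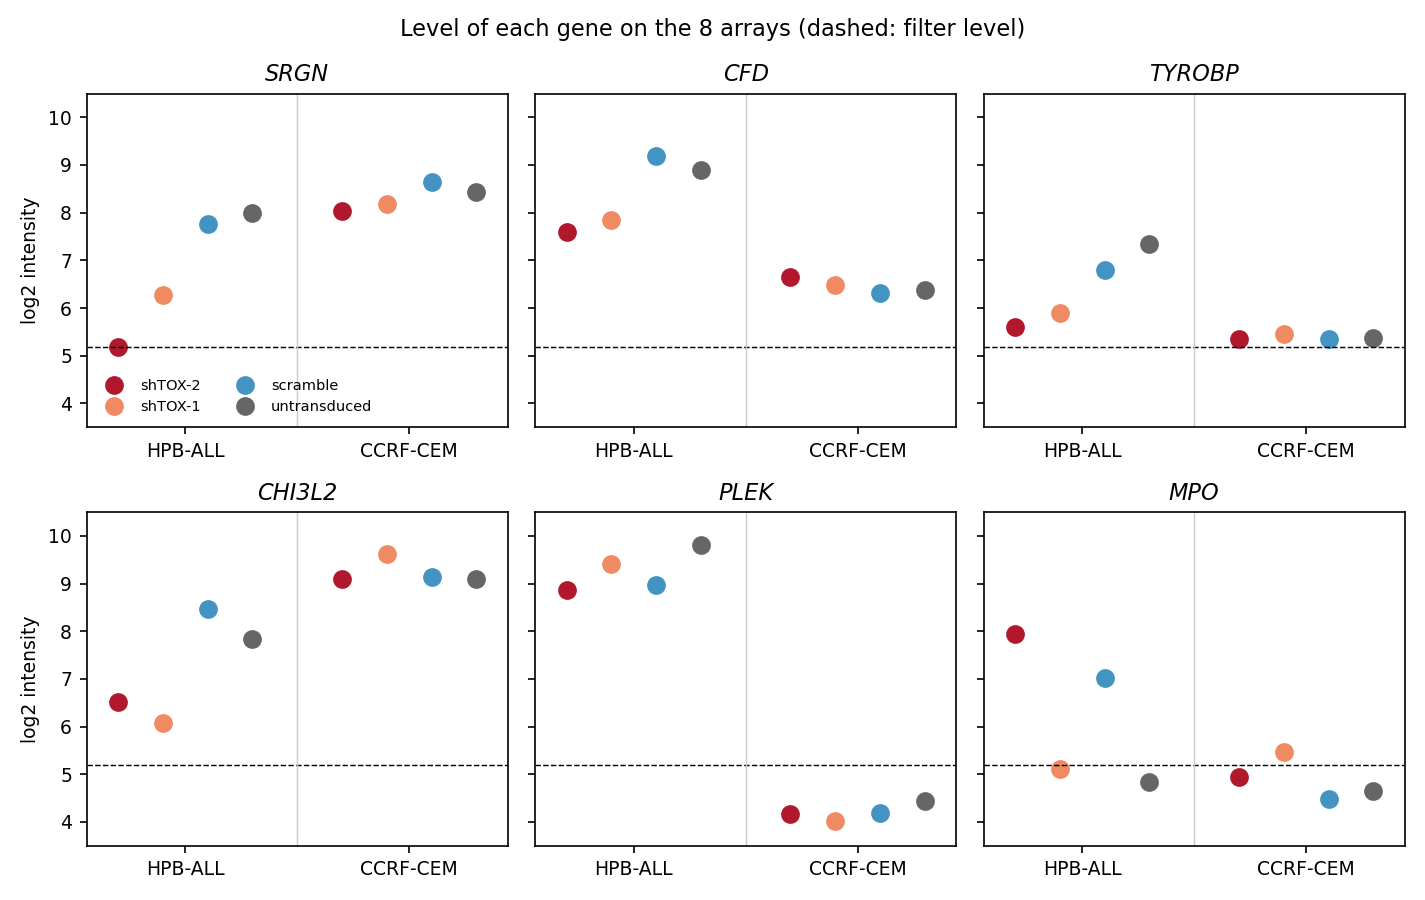
Log2 intensity (vertical axis) of the 6 genes on each of the 8 arrays, HPB-ALL left and CCRF-CEM right in every panel; each point is 1 array, coloured by construct, and the dashed line is the filter level of 5.18. SRGN, CFD, TYROBP and CHI3L2 are lower in both HPB-ALL shTOX arrays than in both HPB-ALL controls, PLEK is split by line, and MPO is high in the shTOX-2 and scramble arrays of HPB-ALL.

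Myeloid-like granule genes in HPB-ALL, as the group is called, describes these values only in part. CFD, TYROBP and PLEK were higher in every HPB-ALL array than in every CCRF-CEM array, SRGN and CHI3L2 were lower in every HPB-ALL array, and MPO overlapped. Among all tested genes, 14.2% lay wholly higher and 12.8% wholly lower in HPB-ALL.

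Levels spread further among the HPB-ALL arrays than among the CCRF-CEM arrays. The range over the 4 arrays of HPB-ALL was 3.11 for MPO, 2.81 for SRGN, 2.39 for CHI3L2, 1.74 for TYROBP, 1.61 for CFD and 0.94 for PLEK. Over the 4 arrays of CCRF-CEM it was 0.98 for MPO, 0.60 for SRGN, 0.53 for CHI3L2, 0.42 for PLEK, 0.33 for CFD and 0.11 for TYROBP. All 6 genes thus varied more in HPB-ALL, by 2.23 to 15.3 times, and for TYROBP, PLEK and MPO the CCRF-CEM levels lay near or below the filter level. The genes were chosen with these HPB-ALL values in view and the share of all tested genes was not taken, so the wider ranges are a description only. Relative to scramble in HPB-ALL, the untransduced array held 117% of the SRGN signal, 81.3% of CFD, 64.3% of CHI3L2 and 146% of TYROBP. The shTOX-2 and shTOX-1 arrays held 32.8% and 39.1% of CFD, 26.0% and 19.1% of CHI3L2, and 43.7% and 53.7% of TYROBP. For these genes the controls differed from each other by less than either hairpin differed from scramble.

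**Figure D2:**
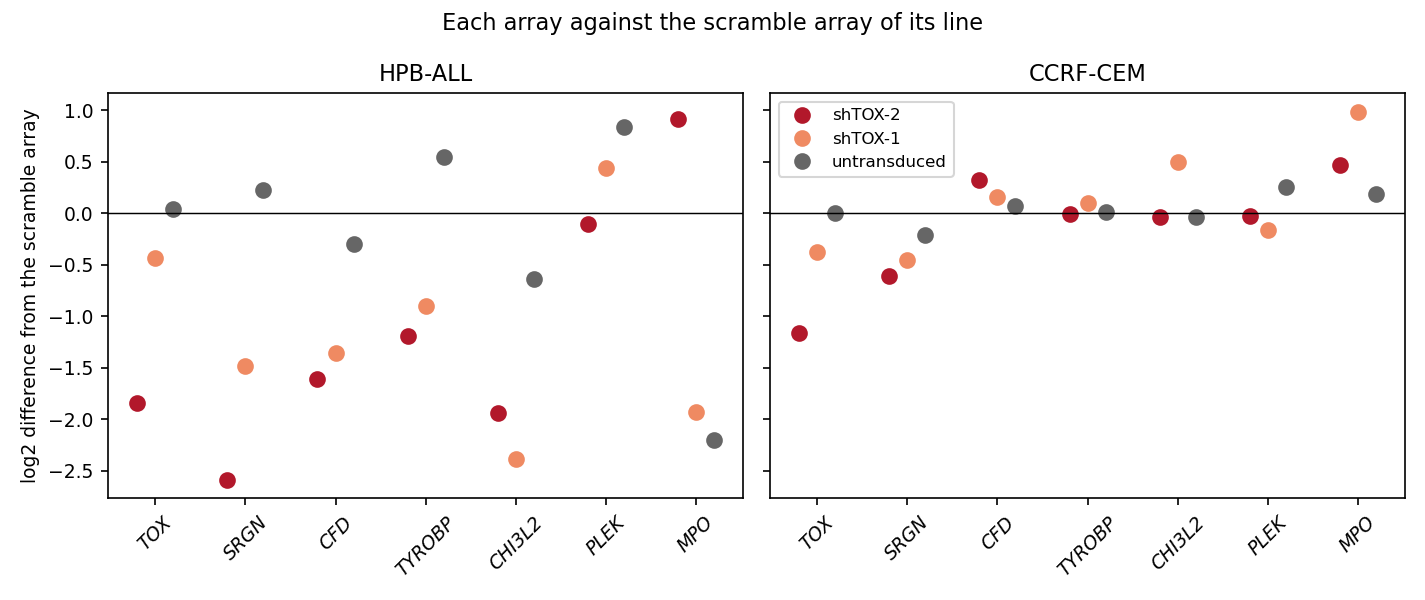
Log2 difference of each array from the scramble array of its line (vertical axis) for TOX and the 6 genes, HPB-ALL left and CCRF-CEM right; each point is 1 array and 0 is scramble. In HPB-ALL the shTOX arrays lie between -0.90 and -2.59 for SRGN, CFD, TYROBP and CHI3L2, while in CCRF-CEM the lowest point among the 6 genes is -0.60, SRGN with shTOX-2.

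Averaged over hairpins and over controls within HPB-ALL, SRGN was 4.43-fold lower with shTOX (-2.15 ± 0.31, log2 difference ± SE of the fit), CHI3L2 3.59-fold lower (-1.85 ± 0.27), CFD 2.52-fold lower (-1.33 ± 0.18) and TYROBP 2.49-fold lower (-1.32 ± 0.21). PLEK differed by -0.25 ± 0.29 and MPO by 0.59 ± 0.89. Only 9 of the 8930 tested genes differed as far downwards as TYROBP, itself included, and SRGN had the second largest negative difference. In 4 of the 6 genes both shTOX arrays lay below both controls, against 16.3% of all tested genes. These are the values the genes were chosen by, and nothing is read from the count. In limma, 0% of all tested genes were called for this difference at an adjusted p under 0.05, and 7.58% had an unadjusted p under 0.05. With single arrays left out, the SRGN difference lay between -2.70 and -1.59. The sign of MPO turned without the shTOX-2 array (-0.83) or the untransduced array (-0.51), and that of PLEK turned without either of the same arrays (0.018 and 0.16).

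The genes stand out in HPB-ALL and between the lines, so the contrast inside CCRF-CEM was tested. The CCRF-CEM values were also in view when the genes were chosen, so the test is not independent of that choice. The fit took a single spread per gene over both lines, so the standard errors rest on the HPB-ALL arrays too. For SRGN the SD was 0.10 in shTOX and 0.15 in control arrays of CCRF-CEM (n = 2 each). In HPB-ALL it was 0.78 in shTOX and 0.16 in control arrays. The p-values thus do not measure the spread inside CCRF-CEM alone. In limma 0 of SRGN, CFD, CHI3L2 and TYROBP were called, as were 0% of all tested genes. Of the same 4 genes 0 had an unadjusted p under 0.05, against 9.19% of all tested genes. SRGN differed by -0.42 ± 0.31 (limma adjusted p = 0.645), CFD by 0.21 ± 0.18 (adjusted p = 0.671), CHI3L2 by 0.25 ± 0.27 (adjusted p = 0.739) and TYROBP, close to the filter level, by 0.04 ± 0.21 (adjusted p = 0.948). PLEK differed by -0.22 ± 0.29 and MPO by 0.63 ± 0.89. Both passed the filter through HPB-ALL, and 4 of 4 and 3 of 4 of their CCRF-CEM arrays lay below the filter level. These 2 differences rest largely on dim signal, so they are given with no call or p-value. The signs of CHI3L2 (-0.019) and TYROBP (-0.017) turned without the shTOX-1 array. Both shTOX arrays lay below both controls for SRGN, as for 20.8% of all tested genes, and above them for CFD, as for 22.3%. PLEK was also without overlap below and MPO above, among levels mostly under the filter level. The adjusted p-values do not show that SRGN, CFD, CHI3L2 and TYROBP were equal with shTOX and without it in CCRF-CEM.

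**Figure D3:**
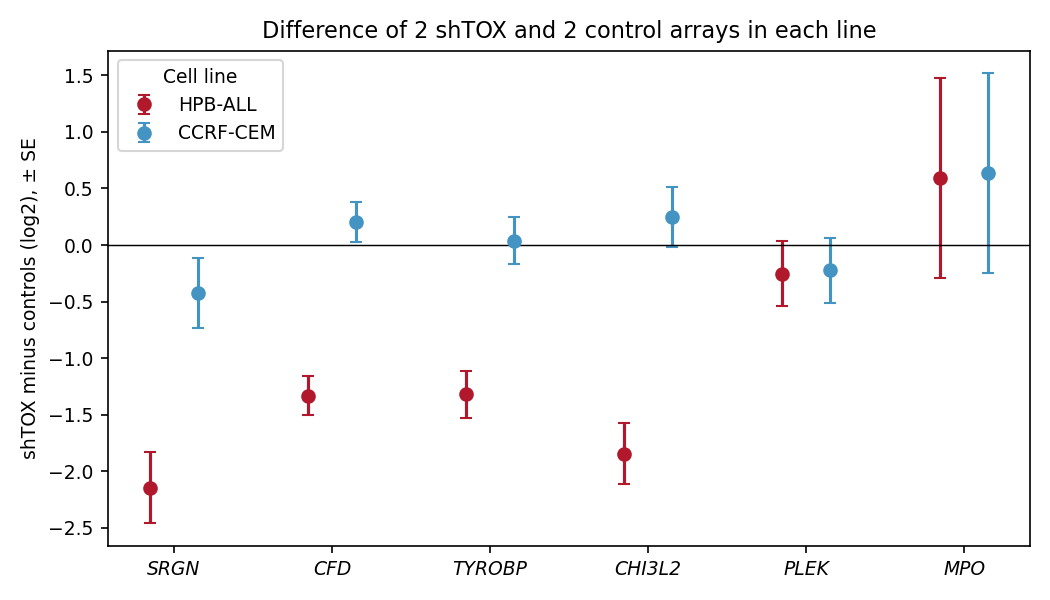
Difference of the means of the 2 shTOX and the 2 control arrays (vertical axis, log2) for the 6 genes, HPB-ALL in red left of CCRF-CEM in blue. Bars are standard errors of the fit, which takes a single spread per gene for both lines. SRGN, CFD, TYROBP and CHI3L2 lie between -1.32 and -2.15 in HPB-ALL and between -0.42 and 0.25 in CCRF-CEM, and PLEK and MPO lie close together in the lines.

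The shTOX difference in HPB-ALL minus that in CCRF-CEM was -2.09 ± 0.38 for CHI3L2, -1.72 ± 0.44 for SRGN, -1.54 ± 0.25 for CFD and -1.36 ± 0.29 for TYROBP, and -0.03 ± 0.41 for PLEK and -0.04 ± 1.25 for MPO. This contrast contains the HPB-ALL arrays, so the sizes are descriptions; of all tested genes limma called 0%, and 4.59% had an unadjusted p under 0.05. The PLEK and MPO values are small against their errors, and their signs turned when single arrays were left out.

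Over both lines, shTOX minus all controls was -1.29 ± 0.34 for SRGN, -0.80 ± 0.38 for CHI3L2, -0.64 ± 0.26 for TYROBP, -0.56 ± 0.27 for CFD, -0.24 ± 0.19 for PLEK and 0.61 ± 0.58 for MPO. Against scramble alone SRGN differed by -1.28 ± 0.43 and PLEK by 0.03 ± 0.18, and against untransduced cells alone SRGN by -1.29 ± 0.43 and PLEK by -0.51 ± 0.18. Of all tested genes, limma called 0% against all controls and 0% against scramble, with 14.3% and 5.14% in that order at an unadjusted p under 0.05. Against untransduced cells it called 11.8%, 6.18% higher and 5.64% lower with shTOX. These comparisons share the shTOX arrays, and each mixes the HPB-ALL pattern with the CCRF-CEM values above, so the means over lines describe neither line.

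Between the kinds of control, scramble minus untransduced was -0.55 ± 0.21 for PLEK and 1.01 ± 0.78 for MPO, and between -0.28 and 0.34 for the other 4 genes. Of all tested genes, limma called 1.06%, 0.582% higher and 0.482% lower with scramble. Between the hairpins, shTOX-2 minus shTOX-1 was 1.16 ± 0.79 for MPO and -0.63 ± 0.47 for SRGN, and -0.04 ± 0.57 for CHI3L2 and -0.04 ± 0.41 for CFD. Of all tested genes, limma called 0%, and 4.27% had an unadjusted p under 0.05. For MPO and CHI3L2 the hairpins differed in opposite directions in the lines, since shTOX-2 was the higher in HPB-ALL and shTOX-1 in CCRF-CEM. For CFD and PLEK they also differed in opposite directions, with shTOX-1 the higher in HPB-ALL and shTOX-2 in CCRF-CEM. The -0.04 of CHI3L2 and of CFD thus averages opposite differences.

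Genes of the same granules and pathways, progenitor genes and markers of whole cell types were set between the lines without the 6 themselves. Of 220 genes on 17 lists, 131 had a named probe set, 75 were tested, 15 were higher in HPB-ALL and 25 lower. The lower ones include 6 T cell markers. On the myeloid lists (neutrophil granule, peroxidase and oxidant, transcription factor and surface genes), 14 were tested, 5 were higher and 3 lower. Of the tested genes of all kinds, 27.4% passed, 14.9% as higher and 12.4% as lower. For 7 of the called listed genes, PXDN, CD44, CD34, CD28, CFP, LPO and C5AR1, every array of the lower line was below the filter level, so background limits their differences. Another 3 genes, PRF1, NCAM1 and CD2, were above that level on every array of one line and below it on every array of the other, but too dim on average to be tested. Among 22 neutrophil granule genes, 4 of the 14 with a named probe set were bright enough to test, and 1 was higher. That gene was CTSG, the azurophil granule protease cathepsin G, at 11.50 with shTOX-2, 11.72 with shTOX-1, 11.49 with scramble and 11.89 untransduced in HPB-ALL, against 7.92 with shTOX-2, 7.90 with shTOX-1, 7.71 with scramble and 10.26 untransduced in CCRF-CEM. HPB-ALL was higher by 3.21 ± 0.45 (limma adjusted p = 0.000501), and the untransduced CCRF-CEM array stood far above the transduced ones. PRTN3, LYZ, LTF, CAMP and BPI were too dim to be tested, and AZU1, LCN2 and S100A9 did not pass.

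Of 12 myeloid transcription factors, 4 were tested. SPI1, which encodes PU.1, was higher in HPB-ALL by 0.90 ± 0.14 (limma adjusted p = 0.000896), and GFI1 (-0.89 ± 0.16) and IRF8 (-0.79 ± 0.13) were lower. Of 21 myeloid surface genes only CD68, a lysosomal glycoprotein of macrophages, could be tested, and it was higher by 0.75 ± 0.13; ANPEP, CD14, CSF1R and CSF3R were too dim. Among 5 tested genes for peroxidases and oxidant handling, LPO (0.71 ± 0.13), another peroxidase, and HMOX1 (1.10 ± 0.27), which breaks down haem, were higher, and PXDN (-3.74 ± 0.14), a matrix peroxidase below the filter level in HPB-ALL, was lower. In HPB-ALL, HMOX1 was at 7.55 with shTOX-2 and 6.57 with shTOX-1, against 6.04 with scramble and 5.51 untransduced. Untransduced CCRF-CEM was at 5.33, so the HMOX1 line difference rests largely on the HPB-ALL shTOX arrays.

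For the DAP12 partners and their signalling, 4 of 5 tested genes were lower in HPB-ALL and 0 higher, opposite to TYROBP. ZAP70, a kinase that binds such activation motifs, was lower (-1.92 ± 0.14), as were the adaptor LCP2 (-1.25 ± 0.14), HCST (-1.06 ± 0.18), the DAP10 adaptor, and VAV1 (-0.50 ± 0.16). The receptors TREM1, TREM2 and SIRPB1 and the kinase SYK were too dim to be tested. Of 4 tested genes listed for cytotoxic granules, 3 were lower, CTSW (-1.89 ± 0.32), NKG7 (-1.02 ± 0.22) and CTSC (-0.38 ± 0.12), and 0 higher. CTSW was at 7.56 in untransduced HPB-ALL and 7.94 in untransduced CCRF-CEM. Its transduced arrays lay further apart, at 6.33 to 7.21 in HPB-ALL and 8.69 to 9.43 in CCRF-CEM. PRF1, the perforin gene of the same list, was untested and lay the other way, at 5.26 to 6.62 in HPB-ALL and 3.94 to 4.58 in CCRF-CEM; it is named after its values were seen.

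Genes that build the glycosaminoglycan chains of proteoglycans such as serglycin differed in the direction opposite to SRGN, with 5 of 9 tested genes higher in HPB-ALL and 0 lower. These were CHPF (1.17 ± 0.14) and CHSY1 (0.45 ± 0.13), which polymerise chondroitin, CHST12 (1.15 ± 0.22), a chondroitin sulfotransferase, and EXT1 (1.05 ± 0.16) and EXT2 (0.41 ± 0.11), which polymerise heparan sulfate. Of 10 tested genes of granule sorting and release, 3 were higher, CD63 (0.88 ± 0.19), STX11 (0.87 ± 0.13) and HPS4 (0.61 ± 0.13), and 2 lower, the priming factor UNC13D (-1.14 ± 0.17) and LAMP1 (-0.56 ± 0.15).

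Among complement genes, 1 of 5 tested was higher, the anaphylatoxin receptor C5AR1 (0.76 ± 0.17), and 2 were lower, C5 (-1.96 ± 0.38) and CFP (-0.9999 ± 0.12), the stabiliser of the alternative convertase; CFB, the substrate of factor D, differed by -0.04. Of the chitinase family only CHID1 was tested (0.04 ± 0.13), and CHI3L1 and CHIT1 were too dim. Of 3 tested genes listed with pleckstrin, FERMT3 (-2.96 ± 0.12) and TLN1 (-0.72 ± 0.14), which activate integrins, were lower. Of 5 tested progenitor genes, CD44 (-4.02 ± 0.12) and CD34 (-3.01 ± 0.54) were lower, both below the filter level on all 4 HPB-ALL arrays, with CD34 at 5.52 in untransduced CCRF-CEM and 8.05 to 8.55 in the transduced arrays of that line.

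**Figure D4:**
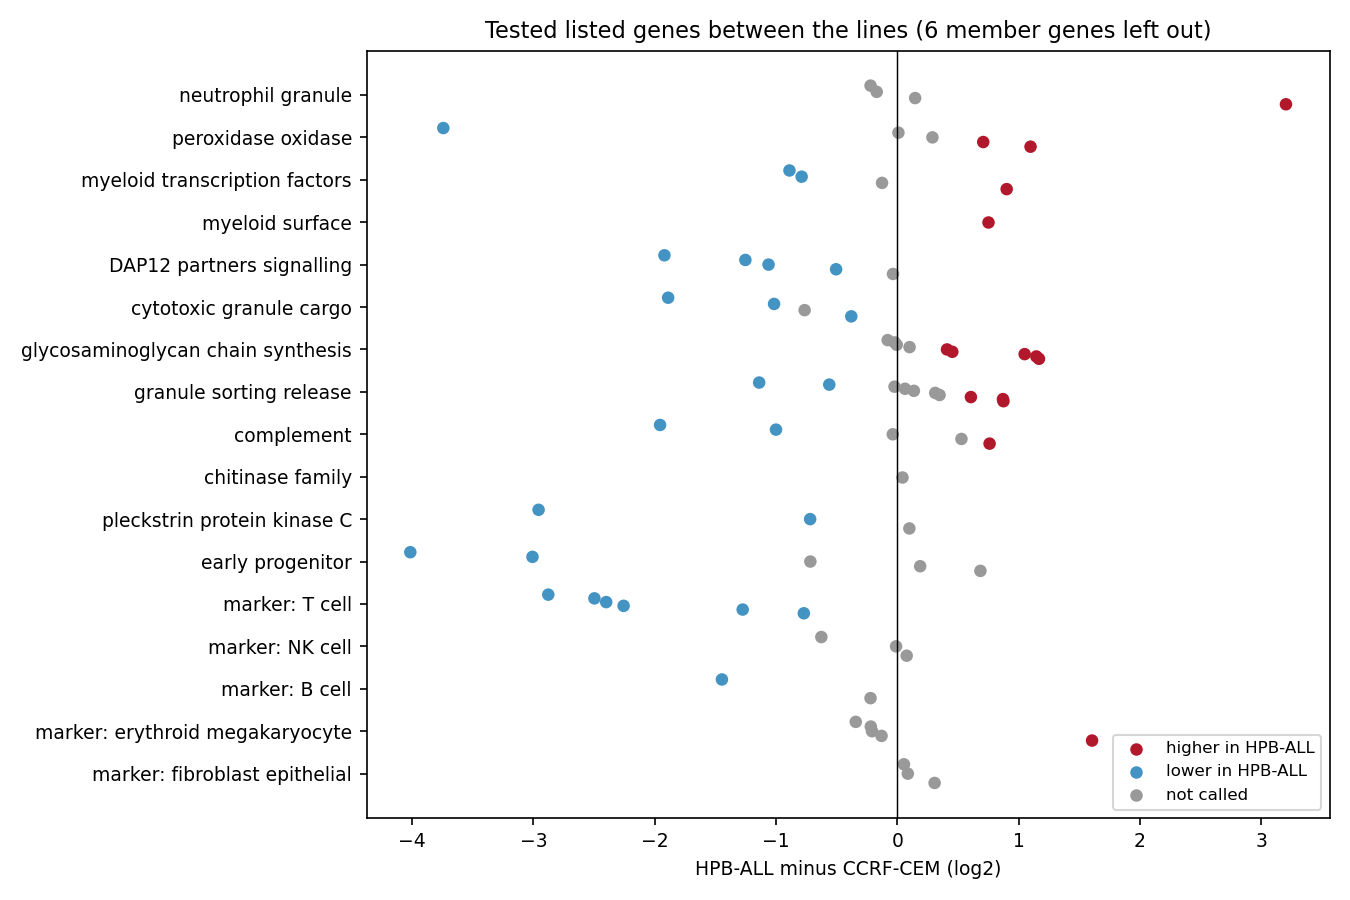
Difference HPB-ALL minus CCRF-CEM (horizontal axis, log2) of each tested gene of the 17 lists, the 6 genes themselves left out; each point is 1 gene, red where it passed as higher in HPB-ALL, blue where lower and grey where it did not pass. Points of glycosaminoglycan chain synthesis lie at or right of -0.08, all 6 T cell markers lie left of 0, and the neutrophil granule point at 3.21 is CTSG.

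Markers of whole cell types were set beside these results. Of 17 defining myeloid markers, 10 had a named probe set; CD14, CSF1R and CSF3R were below the filter level on all 8 arrays. The sum of the 10 log2 levels was 58.5 to 59.7 in HPB-ALL shTOX arrays and 59.3 to 59.7 in HPB-ALL controls, and 53.6 to 53.7 in CCRF-CEM shTOX arrays and 51.7 to 54.7 in CCRF-CEM controls. Without CTSG it was 46.8 to 48.2 in HPB-ALL shTOX arrays and 47.8 to 47.9 in HPB-ALL controls. The sum of these 10 markers thus overlapped between shTOX and control arrays of HPB-ALL. PRTN3, LYZ and ANPEP, also part of it, were too dim on average to be tested. Dim signal could hide a fall, so nothing is read from the overlap. On the lists above, myeloid surface genes, most too dim to test, summed lower with shTOX in HPB-ALL (40.7 to 40.8, controls 41.5 to 42.4). Myeloid transcription factors did so too (28.4 to 28.7, controls 28.9 to 29.3). The sums overlapped for neutrophil granule genes (70.9 to 72.2, controls 70.7 to 71.3) and for peroxidases and oxidant handling (39.4 to 40.2, controls 38.5 to 39.5). Of the NK cell markers 3 were tested and 0 passed between the lines; NCR3 differed by -0.63 ± 0.23, and NCAM1, which was not tested, was at 5.69 to 6.15 in HPB-ALL and at most 4.36 in CCRF-CEM. Of the B cell markers VPREB1 was lower (-1.45 ± 0.20), of the erythroid and megakaryocyte markers EPOR was higher (1.61 ± 0.12), and of 3 fibroblast and epithelial markers 0 passed, with KRT8 at 0.31 ± 0.20.

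The sum of T cell markers was also low on the HPB-ALL shTOX arrays. For the 7 named markers it was 42.7 to 43.4 in shTOX arrays and 45.9 to 47.2 in controls of HPB-ALL, and 56.2 to 58.8 in shTOX arrays and 58.6 to 59.6 in controls of CCRF-CEM. Low sums in HPB-ALL were not particular to T cell markers. Glycosaminoglycan chain synthesis (85.3 to 85.4, controls 86.6 to 86.7) and DAP12 partners (73.5 to 73.7, controls 75.4 to 77.0) were lower with shTOX. So were fibroblast and epithelial markers (28.4 to 28.6, controls 28.8 to 29.5) and the myeloid surface and transcription factor lists. Among genes with a named probe set, 8 of 13 DAP12 partners and 3 of 6 fibroblast and epithelial markers were too dim to test. The pleckstrin list was higher (28.5 to 28.6, controls 26.7 to 28.3), and the remaining sums overlapped. In HPB-ALL, shTOX minus controls was -1.16 ± 0.17 for CD5, -0.997 ± 0.23 for CD7, -0.64 ± 0.15 for LCK, -0.62 ± 0.28 for CD247, -0.22 ± 0.19 for CD6 and 0.05 ± 0.31 for CD28, none of them called. CD2, untested, was at 4.60 and 4.04 with shTOX-2 and shTOX-1, against 4.31 and 4.17 with scramble and untransduced. CD5, CD7, LCK and CD247, surface and signalling genes of T cells, were therefore low on the same 2 arrays as SRGN, CFD, CHI3L2 and TYROBP, and their part in the result was not tested. CD6, CD28 and CD2 overlapped between shTOX and controls. Of all tested genes, 16.3% lay wholly lower and 24.5% wholly higher with shTOX in HPB-ALL, so nothing is read from the number of low markers. In RNA from a whole culture, fewer cells with a transcript and less of it per cell cannot be told apart. Between the lines, all 6 tested T cell markers were lower in HPB-ALL, among them CD247 (-2.50 ± 0.21), CD7 (-0.77 ± 0.17) and CD28 (-2.88 ± 0.26), the last below the filter level in HPB-ALL.

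The 8930 tested genes were also searched for the patterns most like each of the 6, by Pearson r over the 8 arrays after the mean of each line was subtracted, among 3230 genes that varied within lines. The 8 points share lines and constructs, and these r values describe likeness only. Nearest to SRGN were REEP2 (r = 0.966), the T cell adaptor LCP2 (0.964) and the T cell kinase LCK (0.963). REEP2 was at 5.84 with shTOX-2 and 6.43 with shTOX-1 in HPB-ALL, against 6.89 with scramble and 7.03 untransduced. Nearest to TYROBP were GRAMD1C (0.983), TMIGD2 (0.954), a costimulatory receptor of T and NK cells, and GAL (0.943).

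Nearest to CFD were H6PD (0.960), CAPN5 (0.943) and MIR3155A (0.941), and to CHI3L2 APOC4-APOC2 (0.993), SLC66A3 (0.977) and HIP1 (0.962). CAPN5, a calpain protease, was at 7.24 with shTOX-2 and 7.50 with shTOX-1 in HPB-ALL, against 7.99 with scramble and 7.81 untransduced. Nearest to PLEK were ZNF616 (0.993), ZBTB26 (0.969) and PGBD2 (0.966), and to MPO TSPAN2 (0.992), AFF1-AS1 (0.939) and SHC3 (0.939). AFF1-AS1 repeated the alternation of MPO in HPB-ALL on a smaller scale, at 7.25 with shTOX-2 and 6.40 with shTOX-1, against 6.93 with scramble and 6.53 untransduced. TSPAN2 did so at levels below the filter level in HPB-ALL, 4.79 with shTOX-2 and 3.39 with shTOX-1, against 4.35 with scramble and 3.48 untransduced.

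With the line difference left in, r over the 8 arrays was highest for SRGN with DPH6 (0.972), TMIGD2 (0.967) and CD7 (0.949), for CFD with CAPN5 (0.989), SPDYC (0.984) and SPNS2 (0.981), and for CHI3L2 with TIMP2 (0.969), PLLP (0.957) and SLIT1 (0.957). For TYROBP it was highest with GRAMD1C (0.959), CCDC159 (0.956) and YPEL3 (0.952), for PLEK with BAMBI (0.991), KLF8 (0.991) and TMEM117 (0.989), and for MPO with AFF1-AS1 (0.959), SHC3 (0.950) and NES (0.944). CAPN5, GRAMD1C, AFF1-AS1 and SHC3 were near the same gene by both measures. TMIGD2 was near TYROBP by the first and near SRGN by the second.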

How the data were processed

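Total RNA of 8 arrays, 4 of HPB-ALL and 4 of CCRF-CEM, was measured on an Affymetrix array (GeneChip WT Plus labelling, per the labels). Each probe set has 1 deposited value per array, a log2 intensity as judged from its range. How the authors corrected, summarized and normalized the signals is not given in the sources used here. Gene symbols came from the platform annotation: 16098 of 53617 probe sets had 1 symbol and 37519 none. A gene with several probe sets was represented by its brightest, and the upper genes by mean were tested, with the 40th percentile (log2 5.18) as filter level.

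Differences were fitted with limma 3.58.1 in R 4.3.3 over all 8 arrays (eBayes without trend, Benjamini-Hochberg adjustment over 8930 genes, threshold 0.05), after a test on simulated data: line and shTOX for the lines and for shTOX against all controls; 3 treatments and line; a mean per line and state; and shTOX-1, shTOX-2, controls and line. Nothing says the arrays are separate cultures, so p-values cover the spread among them, technical or not. The genes, lists and tests were chosen with earlier results of these data known. The genes named were the 6, TOX, per list up to 6 genes called between the lines (else up to 4 by smallest p, or, with none tested, up to 3 by highest mean), and per gene the 3 most alike by each measure, among genes with a within-line SD of at least 0.25; other list genes are named only as dim or as not passing, and T cell markers also for shTOX, a choice made after their values were seen. Alternatives changed the filter, normalization, probe set rule, variance model, block, line term or arrays used.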

Additional observations from a re-analysis of the deposited data

Results flagged for a closer look

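CHI3L2 in CCRF-CEM was at 9.63 in the shTOX-1 array and between 9.09 and 9.13 in the other 3. The gap to the next array made up 0.928 of the range of the 4 arrays, above Dixon's 95% limit for 4 samples.

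CFD was lower with shTOX in both HPB-ALL arrays and higher in both CCRF-CEM arrays, each against the controls of its own line. The shTOX difference in HPB-ALL minus that in CCRF-CEM was -1.54 on the log2 scale. The HPB-ALL values were in view when the gene was chosen, so it is a description with no test.

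Of the listed genes named in the text, CTSG stood apart in untransduced CCRF-CEM cells (0.919 of the range), as did CD34 in the same array (0.834), CTSG above and CD34 below the other 3. CD6 stood apart in the untransduced HPB-ALL array (0.881), above the others. In all, 4 of 114 groups of 4 arrays passed the limit, where chance flags about 1 in 20.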

How the results depend on the processing

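Between the lines, 4 of the 6 genes were higher in HPB-ALL under all 13 alternatives, with each difference within 1 standard deviation of its value; leaving out single arrays moved SRGN between -1.92 and -0.98 and MPO between 0.77 and 1.81. The 40 listed genes called between the lines numbered 27 to 50 over the alternatives, both within 1.5 times. In HPB-ALL the shTOX differences of SRGN, CHI3L2, CFD and TYROBP kept their sign under all alternatives run, and with single arrays left out they were -2.70 to -1.59, -2.16 to -1.53, -1.48 to -1.18 and -1.59 to -1.05 in that order of genes. The number of the 6 called in HPB-ALL was 0 to 1 when single arrays were left out; nothing is read from it, since the genes were chosen on these values and the 1 came from a fit with a single shTOX array in HPB-ALL, assumed to vary like the other groups. In CCRF-CEM, 0 of SRGN, CFD, CHI3L2 and TYROBP were called under every alternative in which they were tested.

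Signs turned as follows. Without both untransduced arrays, the HPB-ALL difference was 0.16 for PLEK and -0.51 for MPO, and the difference between lines was 0.26 for PLEK. With single arrays left out, the HPB-ALL difference ranged from -0.67 to 0.16 for PLEK and from -0.83 to 2.01 for MPO. The CCRF-CEM difference ranged from -0.019 to 0.51 for CHI3L2 and from -0.017 to 0.096 for TYROBP, and the difference between lines from -0.45 to 0.39 for PLEK and from -1.46 to 1.38 for MPO. The cause was not tested.

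Over all genes, the counts called also moved: with single arrays left out, 29 to 1092 for shTOX against untransduced (1056 with all arrays, 29 without untransduced CCRF-CEM), 3 to 89 for scramble against untransduced (95), 0 to 63 for shTOX in CCRF-CEM (0; 63 without scramble), 0 to 4 for shTOX against controls and for the difference between lines, and 0 to 1 for shTOX in HPB-ALL and against scramble. Scramble against untransduced gave 162 at the 60th percentile and 220 with trend and robust; shTOX in CCRF-CEM gave 1 without both untransduced arrays. In the replicate block, with construct shared by both lines, 16 genes were called for shTOX against controls and 9 for scramble against untransduced. Arrays of the same hairpin deviated together across the lines at r = 0.225, with 2 hairpins only. With the 60th percentile, TYROBP, PLEK and MPO were too dim to be tested. Taking each probe set on its own changes nothing, as each gene has 1. The within-line contrasts cannot be made in the replicate block.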
